A study of Mus musculus with 24 samples.

Results

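The microRNAs (miRs) miR-204 and miR-211 and the gene Trpm3, whose transcript carries mir-204, were followed across hippocampal arrays of neonatal mice. The 3 members were taken by name: the mature probe sets mmu-miR-204_st and mmu-miR-211_st, which are 2 of the 601 mature mouse probe sets without a star on the miR array, and all probesets that the mRNA array names Trpm3, which are 3 of its 55681. They were chosen on measured values, because their levels in the 5 mg/kg group were already known, so the differences of that group from the controls are given as a description and without a test. Only the 2 mg/kg group, and genes that the choice did not use, were tested.

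The samples came from C57BL/6 mouse pups labeled male and killed on postnatal day (P) 9. Untreated controls (Con, 0 mg/kg morphine) were handled as little as possible, while the MS2 and MS5 groups received morphine at 2 and 5 mg/kg from P5 together with daily isolation from the dam in a warmer and short exposures to nitrogen and then oxygen that imitated apnea. Both treated groups therefore shared the isolation and apnea, no group had these without morphine, and every contrast with Con spans drug and stress together. Hippocampal RNA of 15 pups (5 per group) was hybridized to 1-color mRNA arrays and that of 9 pups (3 per group) to miR arrays. Arrays are named below by group and by the number in the sample's title. A number found on both platforms was taken to mark the same pup, which the labels do not state.

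MicroRNAs are short RNAs that pair with messenger RNAs, mainly through their seed, the bases 2 to 8 from the 5′ end, and lower the output of the messages they bind. The genes for miR-204 and miR-211 lie inside genes of the melastatin family of TRP ion channels, mir-204 in Trpm3 and mir-211 in Trpm1. TRPM3 is a calcium-permeable channel known for sensing heat and the steroid pregnenolone sulfate, and miR-204 is known for its high level in the choroid plexus, the epithelium that makes cerebrospinal fluid, and in the pigment epithelium of the eye. TRPM1 is known from melanocytes and retinal bipolar cells, where miR-211 is also found.

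The mature 5p sequences are shown because both miRs share nearly all their bases. The seed is in capitals:
mmu-miR-204-5p: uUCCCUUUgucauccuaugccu
mmu-miR-211-5p: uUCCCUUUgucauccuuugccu
Counted from 1 at the 5′ end of miR-204-5p, the only difference in 22 bases was A17U, outside the seed. Of the 1679 mature mouse miRs in the RefSeq table used, 3 carried this seed, namely this pair and mmu-miR-7670-3p. The array names give no arm, so the 5p arm is the arm of the sequence shown and not a label of the probe set.

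The hairpins are shown because the array also holds probe sets for them. Capitals mark the mature 5p strand:
Mir204: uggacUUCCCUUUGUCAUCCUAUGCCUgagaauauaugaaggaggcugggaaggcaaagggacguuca
Mir211: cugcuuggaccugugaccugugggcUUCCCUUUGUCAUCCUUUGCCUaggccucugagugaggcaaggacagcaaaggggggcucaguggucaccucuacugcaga
In RefSeq coordinates (GRCm38.p6), Mir204 spans chr19:22750605-22750672 on the plus strand, within Trpm3, and Mir211 spans chr7:64205806-64205911 on the plus strand, within Trpm1. The mature 5p strands lie at chr19:22750610-22750631 and chr7:64205831-64205852.

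Several arrays stood apart. On the mRNA array of MS5 9 the level of Xist, the RNA of the inactive X chromosome, was 11.34 (log2) against 5.89 to 6.08 on the 14 others, and that of the Y-linked gene Ddx3y was 6.24 against 11.01 to 11.45, which goes against the label male. On that of MS2 4 the mean level of 10 genes of hippocampal neurons was 10.21, against 11.86 to 12.25 on the others. The array of MS2 5 was dimmer, with a median spot signal of 51.0 against 100.4 to 127.9. Marker genes of the choroid plexus were low on MS5 9 and MS5 14, and their values are given with Trpm3 below. Values are log2 levels throughout and are compared within a probe set, since levels of different probe sets on an array are not on a common scale of amount.

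Within groups, mature miR-204 varied more than almost any other mature miR, most widely in MS5, whose values were known when it was chosen. In the Con group it measured 6.99 in Con 16, 7.06 in Con 17 and 7.53 in Con 18. In the MS2 group it measured 8.30 in MS2 3, 6.84 in MS2 4 and 7.70 in MS2 6, and in the MS5 group 7.31 in MS5 9, 5.23 in MS5 12 and 5.37 in MS5 14. Both MS5 12 and MS5 14 lay below all 6 other-group arrays, whereas MS5 9 lay inside the Con range. Group means were 7.19 ± 0.29 in Con, 7.61 ± 0.74 in MS2 and 5.97 ± 1.16 in MS5 (SD, n = 3 each). The MS5 minus Con difference was -1.22, or 2.33-fold lower, the third lowest difference among the 601 mature probe sets. The SD of 0.81 within groups was above that of 99.2% of them. Without MS5 9 the difference was -1.89, and without MS5 12 or MS5 14 it was -0.85 or -0.92.

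In the MS2 group miR-204 did not differ detectably from Con. The difference was 0.42 (SE 0.54, limma, adjusted p = 0.817 over 1412 probe sets) and the exact two-sided permutation p was 0.5, where 0.1 is the smallest that 3 arrays against 3 allow. Both MS2 3 and MS2 6 were above every Con array and MS2 4 was below, and without MS2 4, the animal number whose mRNA array was low in neuronal genes, the difference was 0.81, while without MS2 3 it was 0.08. Neither mature probe set passed the study's threshold in this contrast, a change of over 1.5-fold with an unadjusted p under 0.05, which 42 of 1412 probe sets, or 2.97%, passed. In the MS5 contrast 14 probe sets, or 0.992%, passed it, and no reading is taken from that share for miR-204, whose choice used this contrast.

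Mature miR-211, with the same seed, moved within a narrow range. It measured 4.36, 4.47 and 4.35 in Con 16, 17 and 18, 4.39, 4.33 and 4.13 in MS2 3, 4 and 6, and 4.36, 4.21 and 4.01 in MS5 9, 12 and 14. These levels were close to the medians of the arrays over all probe sets, 4.17 to 4.21. The MS5 minus Con difference was -0.20 (1.15-fold lower), with MS5 9 inside the Con range and MS5 12 and MS5 14 below it. The MS2 mean differed by -0.11 (SE 0.11, limma, adjusted p = 0.743, exact permutation p = 0.4). Across the 9 arrays its correlation with miR-204 was 0.57, which placed it at rank 28 of the 600 other mature probe sets.

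**Figure D1:**
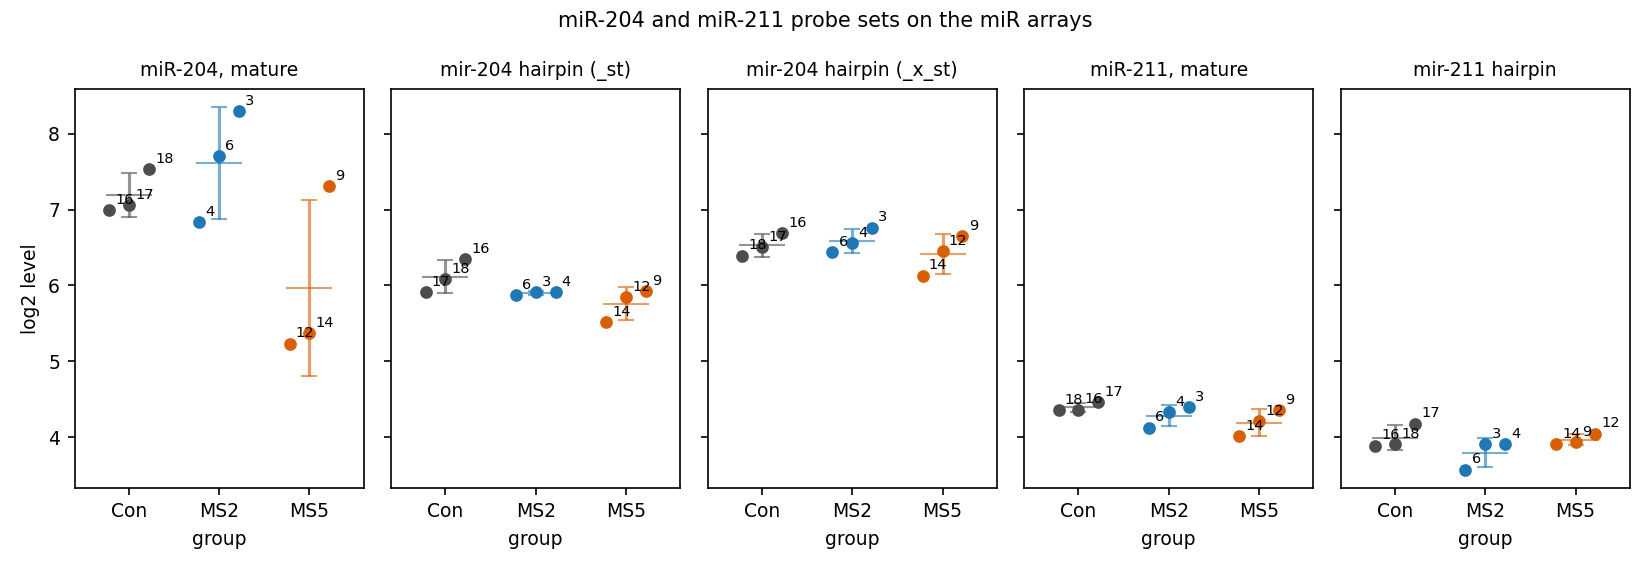
Log2 level of the mature and hairpin probe sets of mir-204 and mir-211 on each of the 9 miR arrays, by group. Points are arrays labeled with the animal number, and bars show the mean and SD of 3 arrays. Mature miR-204 spreads from 5.23 to 8.30, with MS5 12 and MS5 14 at the bottom, while the other 4 probe sets stay within narrow ranges.

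The hairpin probe sets varied less than mature miR-204. On hp_mmu-mir-204_st, the MS5 arrays measured 5.93, 5.84 and 5.51 for MS5 9, 12 and 14, and the Con arrays 6.35, 5.92 and 6.09 for Con 16, 17 and 18, a difference of -0.36. The second hairpin probe set, hp_mmu-mir-204_x_st, differed by -0.12 and that of mir-211, hp_mmu-mir-211_st, by -0.03. MS5 14 was the lowest array on both hairpin probe sets of mir-204, but MS5 12, which had the lowest mature level, stood at 5.84 and 6.45, inside the Con range on the second and just below it on the first. In the MS2 contrast the 3 hairpin probe sets differed by -0.22, 0.06 and -0.20 (limma, adjusted p = 0.557, 0.930 and 0.542). The level 5.91679 recurred on 3 arrays for hp_mmu-mir-204_st and 3.91165 on 4 arrays for hp_mmu-mir-211_st.

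Trpm3 was measured by 3 probesets, each a 60-base probe that was well above background on all 15 arrays. The probes sit at chr19:22841152-22841211 (A_55_P2075692, transcript variant 8), chr19:23000491-23000550 (A_66_P134073, variant 7) and chr19:22843798-22843857 (A_55_P2075686, variant 9) in mm9, the build of the scanner files. The probes with the widest and the narrowest MS5 difference are printed:
A_55_P2075692: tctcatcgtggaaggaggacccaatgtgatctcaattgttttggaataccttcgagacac
A_66_P134073: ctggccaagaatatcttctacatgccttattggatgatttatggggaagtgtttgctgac

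On A_55_P2075692, the probeset with the highest mean level, Trpm3 measured 9.72, 10.71, 10.52, 9.96 and 10.11 in Con 15 to Con 19. The MS2 arrays measured 10.07 in MS2 1, 10.45 in MS2 3, 9.74 in MS2 4, 9.95 in MS2 5 and 9.59 in MS2 7. The MS5 arrays measured 9.54 in MS5 8, 7.56 in MS5 9, 9.86 in MS5 12, 9.09 in MS5 13 and 7.09 in MS5 14. Thus 4 of 5 MS5 arrays lay below every Con and MS2 array, MS5 12 lay inside the Con range, and MS5 9 and MS5 14 were far below the rest. Group means were 10.20 ± 0.41 in Con, 9.96 ± 0.33 in MS2 and 8.63 ± 1.23 in MS5 (SD, n = 5 each). The MS5 minus Con difference was -1.58, or 2.98-fold lower, rank 7 from the lowest among 55681 probesets. The difference was -1.31 without MS5 9, -1.19 without MS5 14 and -0.71 without both.

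In MS2, Trpm3 was not detectably different from Con on any probeset. On A_55_P2075692 the difference was -0.24 (SE 0.44, limma, adjusted p = 0.980 over 55681 probesets, exact permutation p = 0.286, with 0.00794 the smallest possible). It was 0.09 on A_66_P134073 (adjusted p = 0.982, exact permutation p = 0.540) and -0.08 on A_55_P2075686 (adjusted p = 0.990, exact permutation p = 0.690). In this contrast 13 probesets, or 0.0233%, passed the study's threshold, none of Trpm3. None of the 55681 had an adjusted p under 0.05 by limma, where 2324 had an unadjusted p under 0.05.

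The 3 probesets of Trpm3 were all lowest in MS5 14 and MS5 9 but differed in the size of the MS5 difference and in the order of the MS2 arrays. It was -1.58 on A_55_P2075692, -0.68 on A_55_P2075686 and -0.34 on A_66_P134073. The levels on A_55_P2075686 and A_66_P134073 correlated with those on A_55_P2075692 at 0.94 and 0.93 over 15 arrays, and at 0.82 and 0.72 over the 10 Con and MS2 arrays alone. On A_55_P2075686 the MS5 arrays ranged from 6.24 (MS5 14) through 6.43 (MS5 9) to 7.52, against 7.22 to 8.01 in Con, and 3 of 5 lay below all others. On A_66_P134073 they ranged from 7.96 (MS5 14) through 8.07 (MS5 9) to 8.88, against 8.60 to 9.07 in Con, and only MS5 9 and MS5 14 lay below the Con range. Slides also differed: on A_55_P2075692 the MS5 difference was -0.75 on the slide that held MS5 8 and MS5 13 and -2.24 on the slide that held MS5 9, 12 and 14. The RefSeq gene table listed 51 transcripts of Trpm3, and which of them each probe reads was not tested.

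**Figure D2:**
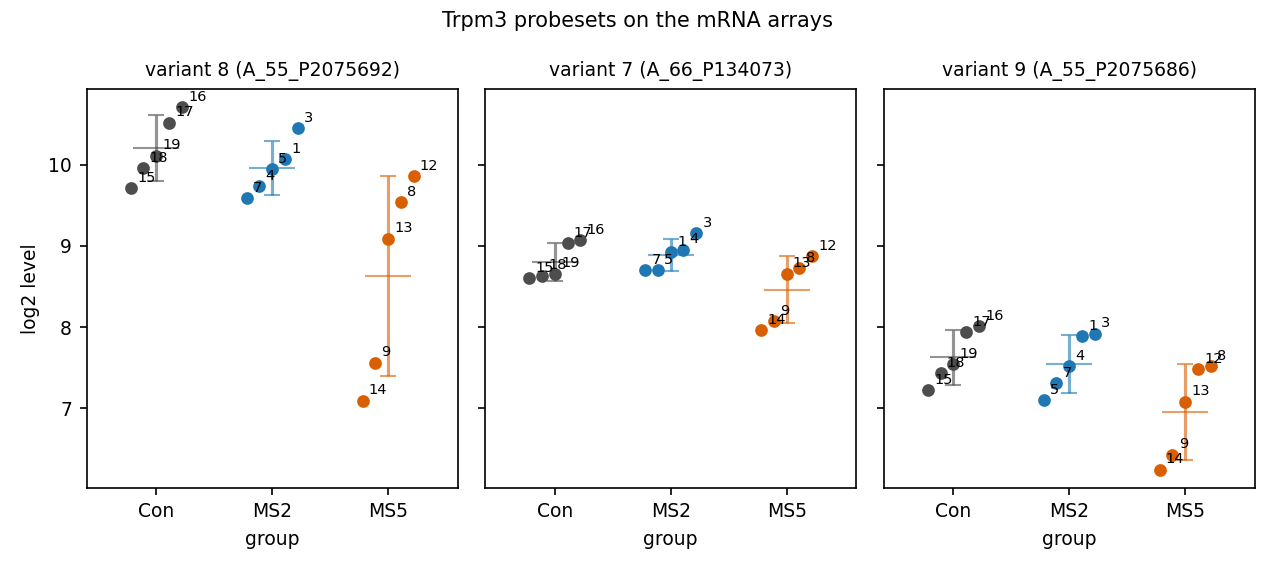
Log2 level of Trpm3 on the 15 mRNA arrays for each of its 3 probesets, by group. Points are arrays labeled with the animal number, and bars show the mean and SD of 5 arrays. MS5 9 and MS5 14 are lowest on every probeset, and the gap to Con is widest on A_55_P2075692.

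The genes next to Trpm3 on chromosome 19 showed no difference past the threshold. Klf9, a Krüppel-like transcription factor, differed between MS5 and Con by 0.06 (SE 0.17) and Tmem2 (Cemip2), a hyaluronan-degrading membrane protein, by 0.00 (SE 0.10). Trpm1, the host of mir-211, also showed no difference past the threshold on any of its 4 probesets, whose MS5 differences ran from -0.07 to 0.05. On A_55_P2043782, its brightest probeset, Trpm1 measured from 11.19 to 11.53 in Con, 11.15 to 11.82 in MS2 and 10.996 to 11.77 in MS5. It was well above background there on all arrays, and the groups overlapped. A_55_P2043777 was also above background on all 15 arrays, at 6.36 to 6.52 in Con, 6.33 to 6.43 in MS2 and 6.31 to 6.45 in MS5. On it 4 of 5 MS5 and 4 of 5 MS2 arrays lay below every Con array. A_55_P2037997 was above background on 2 arrays and A_51_P338031 on none.

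Of the 26 other TRP channel genes, 13 were higher and 13 lower in MS5 than in Con, with a median difference of 0.00, and 1 passed the threshold. This was Trpv4, a calcium channel opened by cell swelling and warmth, which fell by 1.11 (SE 0.37, 2.16-fold, limma, unadjusted p = 0.00977, adjusted p = 1.00). Trpv4 measured 10.32 in MS5 8, 8.65 in MS5 9, 10.59 in MS5 12, 9.81 in MS5 13 and 8.20 in MS5 14, against 10.14 to 10.92 in Con and 10.08 to 10.78 in MS2. MS5 9 and MS5 14 were again the lowest, and without both the difference was -0.39 and no longer passed. Within slides it was -0.45, which did not pass, and -1.65. Over all 36163 gene names the share past the threshold was 0.279%, and over all 55681 probesets it was 0.228% (127 probesets, 102 of them lower). By limma 1532 of the 36163 gene names had an unadjusted p under 0.05. No TRP gene had an adjusted p under 0.05, and 2 had an unadjusted p under 0.05 by limma.

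The second of these was Trpm5, a channel known from taste cells, with a difference of -0.46 (SE 0.11, limma, unadjusted p = 0.00101), which is 1.37-fold lower and so under the threshold. Trpm5 measured 6.76 to 7.25 in Con, 6.70 to 7.06 in MS2 and 6.30 to 6.78 in MS5, and was lowest in MS5 14 and MS5 9. Among the 26 TRP genes, Trpv4 and Trpm5 correlated most with Trpm3 over the 15 arrays (0.99 and 0.93), followed by Trpm4 at 0.325. The values for Con and MS2 alone were 0.91, 0.92 and -0.30. In the MS2 contrast 12 TRP genes were higher and 14 lower, the median was -0.02, and none passed the threshold or had an unadjusted p under 0.05 by limma, so none had an adjusted p under 0.05.

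The 20 genes listed as described targets of miR-204 showed no common shift. In MS5 against Con 10 were higher and 10 lower, with a median of 0.01 beside 0.00 over all genes, and none passed the threshold. By limma 1 had an unadjusted p under 0.05, as did 1532 of all 36163 gene names, and none had an adjusted p under 0.05. The 1 target was Igf2r, the receptor that clears insulin-like growth factor 2, at -0.10 (SE 0.04). The highest differences were those of 2 related homeobox factors, Meis1 at 0.84 (SE 0.54) and Meis2 at 0.46 (SE 0.33). The lowest was that of Mitf, a factor of pigment cells, at -0.38 (SE 0.20). In MS2 against Con 9 were higher and 11 lower, the median was -0.03 and none passed. By limma 1 of them, Nfat5, a factor of the response to osmotic stress, had an unadjusted p under 0.05, at 0.24 (SE 0.10). Of all 36163 gene names 1424 did so in this contrast. Over all gene names 0.0304% passed in this contrast.

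Meis1 and Meis2 were high on some arrays of every group. Meis1 was at most 8.84 in Con 15 to Con 18 but 10.31 in Con 19, reached 11.31 in MS2 4 and 10.56 in MS2 5, and measured 10.66, 9.11, 9.59, 9.36 and 10.23 in MS5 8, 9, 12, 13 and 14. Meis2 was likewise highest among the Con arrays in Con 19, at 12.93 against 11.50 to 11.71. In MS5 12 and MS5 14, the animal numbers with low miR-204, Meis1 stood at 9.59 and 10.23, and in MS2 4, with miR-204 at 6.84, at 11.31. MS2 4 and Con 19 also had the highest mean levels of 9 hypothalamic and thalamic genes in their groups, 10.81 and 8.48. The part of these genes in the Meis1 values was not tested.

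The study also measured miR-204 by RT-PCR, with pups beyond those arrayed, and reported a decrease there, and those values were not used here. It paired Ap1s2 and Syt6 with miR-204, and the probesets of these genes gave different calls. Ap1s2, an adaptor subunit of vesicle coats, fell on A_51_P435321, with a difference of -0.76 (SE 0.20, 1.70-fold, limma, unadjusted p = 0.00155) and was 0.13 (SE 0.11) higher on A_52_P488596. Syt6, a synaptotagmin, rose on A_55_P2121240 by 0.97 (SE 0.45, unadjusted p = 0.0472) and was 0.63 (SE 0.39) higher on A_55_P1965219, which did not pass. These genes were picked by the study on these arrays and are no independent evidence of a direction, and all 4 adjusted p were 1.00.

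**Figure D3:**
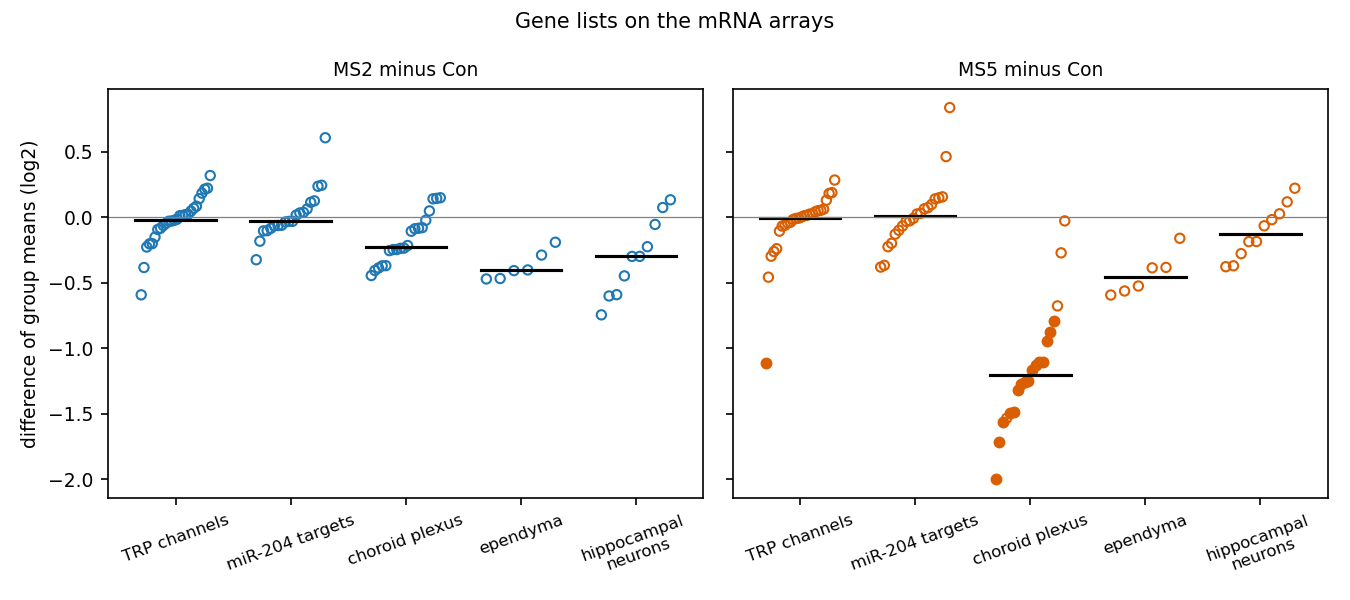
Difference of group means (log2) for every gene of 5 lists on the mRNA arrays, MS2 minus Con on the left and MS5 minus Con on the right. Circles are genes, filled where the change exceeded 1.5-fold with an unadjusted p under 0.05, and black lines are list medians. TRP channels and miR-204 targets center near 0 in both panels, while choroid plexus genes center at -1.21 in MS5.

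The choroid plexus genes were low on the arrays where Trpm3 was low, and their part in the Trpm3 difference was not tested. All 20 listed were lower in MS5 than in Con, with a median of -1.21, and 16 passed the threshold, against 0.279% of all gene names. Among them were Kcne2, a potassium channel subunit (-1.72), Kcnj13, a potassium channel (-1.56), and Clic6, a chloride channel (-1.32). The study had already reported many of the listed genes as lower in MS5 on these arrays, such as Aqp1, Cldn2, Folr1 and Kl. The count is therefore no independent evidence of a fall. None of the 20 had an adjusted p under 0.05 by limma and 16 had an unadjusted p under 0.05. The list mean was 11.44 in MS5 8, 9.82 in MS5 9, 11.69 in MS5 12, 10.99 in MS5 13 and 9.03 in MS5 14, against 11.28 to 12.13 in Con and 11.35 to 11.89 in MS2. From the lowest, the order MS5 14, 9, 13, 8 and 12 was that of Trpm3, and MS5 8 and MS5 12 were inside the Con range of the list. Without MS5 9 the number past the threshold was 9, without MS5 14 it was 11, and without both it was 2. In MS2 none passed, and the median was -0.23. In bulk tissue, fewer cells of a type and less RNA per cell cannot be told apart.

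Trpm3 followed the list mean at r = 0.99 over 15 arrays and at 0.95 over the 10 Con and MS2 arrays. Its r with the mean of the 10 hippocampal neuron genes was 0.04 over 15 arrays and 0.29 over the Con and MS2 arrays. The neuron mean was far lowest on MS2 4, at 10.21, an array in both sets. These correlations are descriptions over arrays that share group and tissue. Of 27871 gene names measured above background in a group, the 5 whose probeset came closest to Trpm3 over 15 arrays were Defb11 (r = 0.989) and Defb9 (0.986), both beta-defensins, Trpv4 (0.986), Folr1 (0.986) and Tex22 (0.986). Their r over the 10 Con and MS2 arrays ran from 0.91 for Trpv4 to 0.98 for Tex22. Of the 20 choroid plexus genes, each read by its closest probeset, 12 were among the 50 gene names closest to Trpm3 and 15 among the closest 100. Car12 stood at rank 335 and Prlr at rank 10114. These ranks include the MS5 arrays, whose values were known when Trpm3 was chosen. In MS5, markers of ependyma, the ciliated lining of the ventricles, were lower for 6 of the 6 genes measured, with a median of -0.46. In MS2 all 6 were lower as well, with a median of -0.40, and none passed the threshold in either contrast.

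In the other marker lists no gene fell past the threshold in MS5. Of the 6 pigment cell genes, which were listed because miR-204 and miR-211 are known from such cells, 3 were higher and 3 lower in MS5. Their mean level was 6.77 to 7.11 in Con and 6.75 to 6.98 in MS5, and none passed the threshold. The 7 meningeal genes were all lower in MS5, as were 50.6% of all gene names, and their median was -0.20. The 10 hippocampal neuron genes had a median of -0.13 and the 6 astrocyte genes of -0.01. None of these genes passed. Of the 9 hypothalamic and thalamic genes 3 rose past the threshold in MS5, against 0.279% of all gene names. These were Avp (2.53), the highest difference of all gene names, Trh (1.89) and Oxt (1.79). The MS5 arrays spread widely, and Avp measured 6.76 to 12.47 in MS5 against 6.32 to 8.18 in Con. Trh measured 9.05 to 11.30 against 7.23 to 10.68, and Oxt 7.27 to 11.62 against 7.15 to 7.86. The list mean was 9.41 in MS5 8, 9.20 in MS5 12 and 9.32 in MS5 14. In MS5 9 and MS5 13 it was 8.15 and 8.43, inside the Con range of 7.92 to 8.48. The study had already reported Avp and Trh as risen on these arrays, so the count is no independent evidence of a rise. Of the 9 genes 7 were higher and 2 lower, with a median of 0.10, and none had an adjusted p under 0.05 by limma. In the MS2 contrast no gene of these lists passed it.

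Of the 3 MS5 animal numbers on both platforms, 1 was low in both miR-204 and Trpm3 and the others were low in only miR-204 or only Trpm3. Of the 8 numbers, MS5 14 was low in both, at 5.37 for miR-204 and 7.09 for Trpm3 (A_55_P2075692). MS5 9 had miR-204 at 7.31, inside the Con range, but Trpm3 at 7.56 and a choroid plexus list mean of 9.82. MS5 12 was the reverse, with miR-204 at 5.23, Trpm3 at 9.86 and a list mean of 11.69. The 3 Con and 2 MS2 numbers lay between 6.84 and 8.30 for miR-204 and between 9.74 and 10.71 for Trpm3. As the MS5 animals lay apart from the rest, no correlation over the 8 is given. Whether the numbers 9 and 12 mark the same pups on both platforms was not tested, and with these numbers exchanged on either platform the low values of miR-204 and Trpm3 would fall in the same animals.

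A second host gene and its miR showed a like arrangement on some probesets of the gene but not on all. The gene of miR-448 lies in Htr2c, a serotonin receptor of the choroid plexus and of neurons. Mature miR-448 measured 7.25 in MS5 9, 4.81 in MS5 12 and 4.71 in MS5 14, against 6.76 to 7.61 in Con. Htr2c on A_55_P2068461 measured 7.34 in MS5 9, 8.09 in MS5 12 and 7.62 in MS5 14, against 8.08 to 8.46 in Con, so MS5 9 and MS5 14 were low and MS5 12 was at the lower end of the Con range. This is the probeset of Htr2c closest in pattern to Trpm3, and miR-448 is among the probe sets closest to miR-204 (r = 0.96). Both were thus picked for their likeness to the first pair, and the arrangement is no independent evidence on the animal numbers. On the brightest, A_55_P1977503, it measured 12.04, 12.49 and 12.09 in MS5 9, 12 and 14, against 12.25 to 12.95 in Con, and on A_55_P2158921 it measured 6.38, 6.52 and 6.42, all below the Con range of 6.57 to 6.80. On every probeset MS5 12 was the highest of these 3, whereas for miR-448 MS5 9 was. Group means within a platform do not depend on how the numbers pair.

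**Figure D4:**
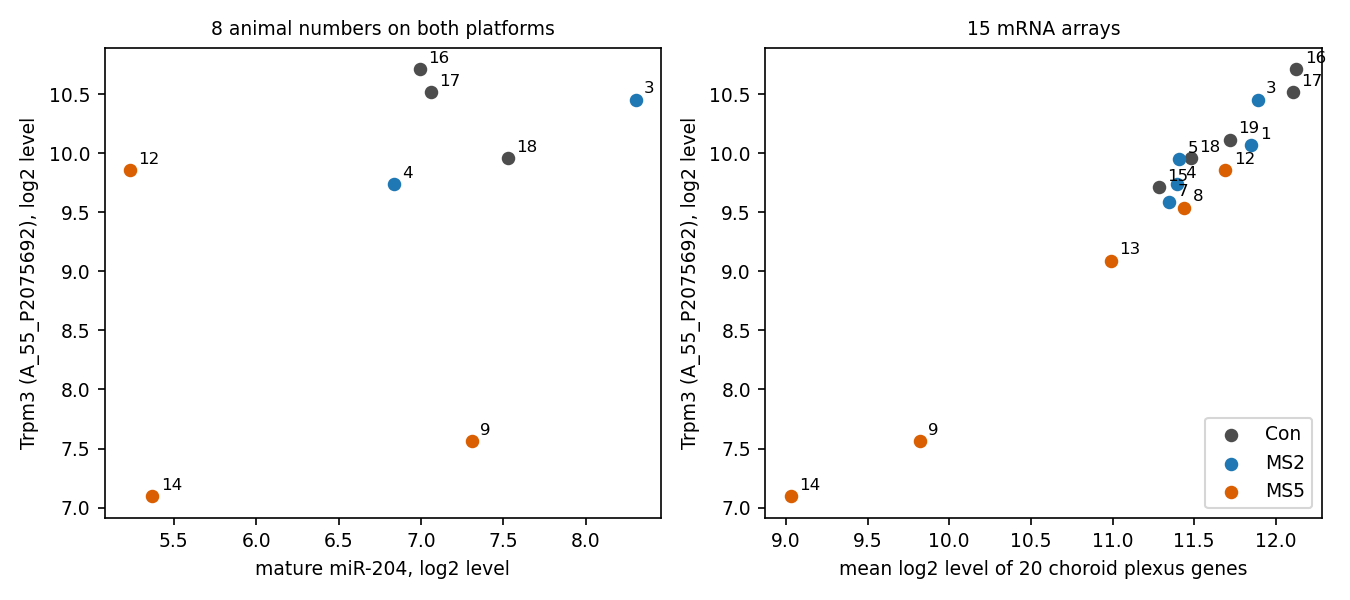
Left, mature miR-204 against Trpm3 (A_55_P2075692) in the 8 animal numbers on both platforms; right, the mean log2 level of 20 choroid plexus genes against Trpm3 on the 15 mRNA arrays. Points are labeled with the animal number and colored by group. MS5 9 and MS5 12 sit at opposite corners on the left, whereas on the right all 15 arrays fall along a line.

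The 5 mature probe sets closest to miR-204 over the 9 arrays were miR-34b-5p (r = 0.96), miR-34b-3p (0.96), miR-448 (0.96), miR-449a (0.91) and miR-1968 (0.89). The miR-34 and miR-449 families are known from cells with motile cilia. Over the 6 Con and MS2 arrays, their r with miR-204 was 0.81, 0.88, 0.78, 0.80 and 0.58. Mature miR-34b-5p measured 6.16 in MS5 9, 4.72 in MS5 12 and 4.80 in MS5 14, against 5.68 to 6.65 in Con, so the same pair of MS5 arrays was low. The MS5 minus Con differences of the 5 were -0.96, -0.75, -1.59, -0.94 and -0.31, given without a test because they were picked for their likeness to miR-204. In MS2 they were 0.21, 0.11, 0.14, -0.13 and 0.00.

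These sequences are shown because the seed of the 2 probe sets listed first and last here is shared and is not that of miR-204. Capitals mark bases 2 to 8:
mmu-miR-34b-5p: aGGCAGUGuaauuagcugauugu
mmu-miR-34b-3p: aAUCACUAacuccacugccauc
mmu-miR-449a-5p: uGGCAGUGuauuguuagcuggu
In GRCm38.p6, miR-34b-5p lies at chr9:51103610-51103632 and miR-34b-3p at chr9:51103574-51103595, both on the minus strand. The sequence of miR-449a-5p lies at chr13:113037549-113037570 on the plus strand within Cdc20b, and the array's name for miR-449a gives no arm.

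**Figure D5:**
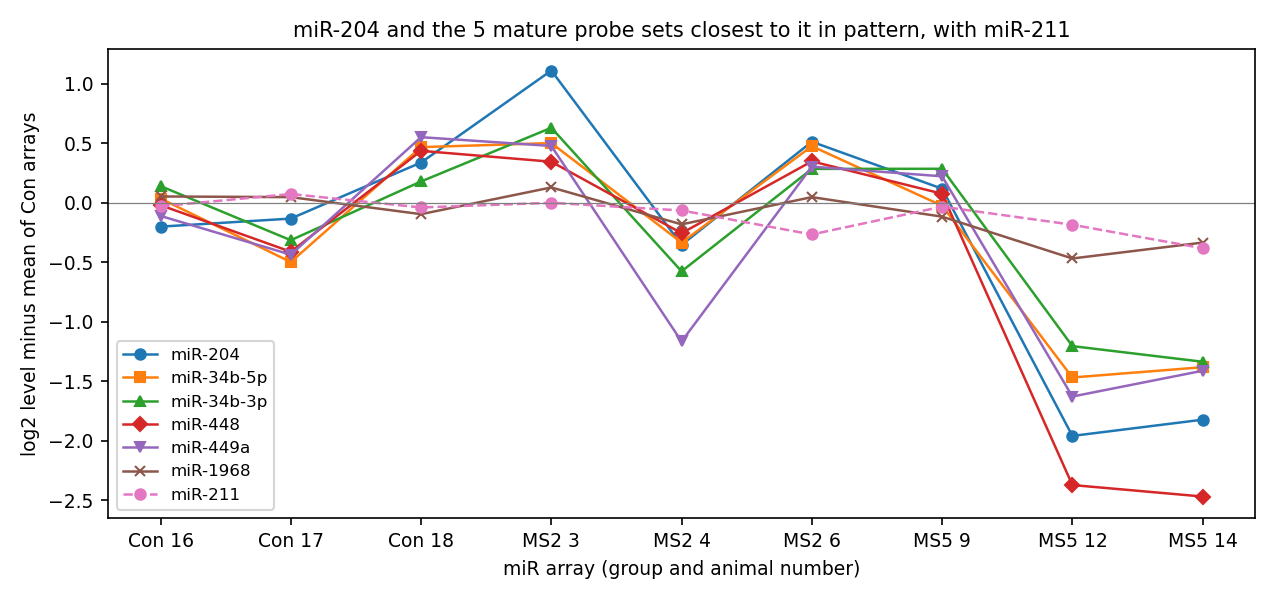
Log2 level minus the mean of the 3 Con arrays for miR-204, the 5 mature probe sets closest to it in pattern, and miR-211 (dashed), on each of the 9 miR arrays. MS5 12 and MS5 14 lie below the Con mean for every probe set shown, with small gaps for miR-1968 and miR-211, while MS5 9 stays nearer to the Con mean.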

How the data were processed

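Levels were measured on 15 mRNA arrays and 9 miR arrays. The deposited scanner files hold the intensity of each spot, not normalized between arrays. The authors' log2 tables hold background-adjusted, quantile-normalized mRNA values and, for miRs, values made by RMA, which the submitters' processing notes name (background correction, normalization, then a summary of the probes of a set). The mRNA intensities were rebuilt with R 4.3.3 and limma 3.58.1: normexp at an offset of 50, quantile normalization over 62976 spots, log2, removal of 3671 control spots and averaging of spots of a probe to 55681 probesets. These values differed from the authors' log2 values by more than 0.01 at 432 probesets. The miR log2 values were used as deposited.

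Groups came from the labels. Contrasts were fitted with limma (lmFit, eBayes) over all 3 groups, with Benjamini-Hochberg adjustment over all features. The MS2 minus Con differences of the members also had exact two-sided permutation tests. A gene was read by its probeset with the highest mean, except that Htr2c, Ap1s2, Syt6 and the nearest patterns were read by probeset. A planned correlation of miR-204 with Trpm3 over animals is not reported, since leaving out its extreme animals removed those with low miR-204. Members and lists were chosen with earlier results of these data known. Genes named were the members, list genes that a sentence needed and the 5 nearest patterns on each platform. Ap1s2 and Syt6 probesets, Htr2c and Trpm5 were singled out after their values were seen. Alternatives were other background corrections and scalings, filters, array weights, slide, probeset averaging and leaving out each array; those for choroid plexus genes and Trpv4 were added after seeing the data. The fits were tested on simulated data. The number of arrays limits precision. The pups of the 15 mRNA arrays were 15 different mice, per the study's methods, and litters are not labeled.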

Additional observations from a re-analysis of the deposited data

Results flagged for a closer look

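In 69 sets of 5 arrays, the values of 23 genes or list means in each group, 7 held an array far from the other 4 by Dixon's ratio, where chance alone gives about 1 in 20. None of the 7 was a Trpm3 value. In Con 19, Meis1 stood at 10.31 with the nearest array at 8.84, Meis2 at 12.93 with the nearest at 11.71, and the mean of the meningeal list at 11.14 with the nearest at 12.10. In MS2 4, Klf9 stood at 12.01 (nearest 12.85), the mean of the hypothalamic and thalamic list at 10.81 (nearest 8.56) and that of the hippocampal neuron list at 10.21 (nearest 12.04). In MS5 9, the astrocyte list mean stood at 12.90 (nearest 13.17). Without MS2 4 the MS2 difference of Trpm3 was -0.19.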

How the results depend on the processing

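No paired analysis was possible because the groups compared on a platform shared no replicate number. The MS5 and MS2 differences of miR-204, miR-211 and Trpm3 (A_55_P2075692) kept their sign under every setting that could be run, and the MS2 differences stayed under the threshold. A filter on a mean level of 5 removed miR-211, so it has no value there. Leaving out each array gave -1.89 to -0.85 for miR-204 in MS5 and 0.08 to 0.81 in MS2, -0.28 to -0.11 and -0.17 to -0.03 for miR-211, and -1.88 to -1.19 and -0.37 to -0.12 for Trpm3. The mean of all its probesets put Trpm3 in MS5 at -0.86. On A_55_P2075686 the MS2 difference turned to 0.036 with array weights and 0.18 on slide 1, ran from -0.18 to 0.032 when arrays were left out, with 0.016 without Con 16 and 0.032 without MS2 5, and the MS5 difference moved to -1.20 with processed signals. On A_66_P134073 the MS2 difference turned to -0.038 on slide 2.

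Among TRP genes 2 passed in MS5 with an offset of 0 and with processed signals, Trpm5 being the second. Targets passing in MS5 numbered 1 on slide 1 (Meis1), 1 on slide 2 (Mitf) and 0 to 2 when arrays were left out, with Meis1 and Meis2 passing without Con 19. Trpv4 was at -0.45 on slide 1 and did not pass, and its MS2 difference turned to 0.052 there. Choroid plexus genes passing in MS5 numbered 2 on slide 1 and 6 on slide 2, with fewer arrays each, and 9 to 18 when arrays were left out. The causes were not tested. In all, 142 of 154 values under other settings and 242 of 246 without an array kept their direction and side of the threshold or moved by less than the replicate spread. A count of genes was taken as kept if it changed by no more than 1.5-fold. Leaving out an array of a group outside a contrast cannot move its difference, so part of the 246 could not change.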
